A study of Mus musculus with 12 samples.

Results

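Cortisol was compared with no treatment in 3T3-L1 cells grown without macrophages, using 6 of the 12 arrays of the series. 3T3-L1 is a mouse fibroblast line that serves as a pre-adipocyte, since it can be driven to become fat cells. The comparison took the Cy3 (green) signal, which held the cells grown alone, from the 3 arrays of cells given 100 µM cortisol (C) and the 3 arrays of untreated cells (NT), after 6, 24 or 48 h, each C array being set against the NT array of its time. On the same arrays the Cy5 (red) signal held 3T3-L1 cells given the same treatment in co-culture with macrophages of the mouse line RAW264.7. The remaining 6 arrays held cells given 100 µM serotonin (S) or 100 µM of both hormones (CS) at the same times. The hormones were dissolved in DMSO for their stocks, and the sources used here do not say whether the untreated wells received DMSO. All groups shared the cell line and its growth medium with serum.

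Cortisol enters the cell and binds the glucocorticoid receptor, which leaves a complex with heat shock proteins, moves to the nucleus and binds response elements at its target genes. Textbook targets include feedback and anti-inflammatory genes such as Fkbp5, Tsc22d3 and Per1, while the receptor lowers the transcription of many cytokines through factors of the AP-1 and NF-kB families. In pre-adipocytes glucocorticoids are known as one part of the cocktail that starts adipocyte differentiation.

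Each condition had 1 array, so the 3 times stood in for replicates. Nothing in the labels says that they came from separate cultures. The p-values therefore cover nothing but the scatter of the 3 differences between C and NT around their mean, moderated across genes. Technical scatter and a change of the cortisol effect with time cannot be told apart in it. Each time lay on a slide of its own, and cortisol and untreated samples kept the same position on every slide, so position and treatment cannot be told apart. The green channel of the 6 arrays had 19618 to 21334 probes well above background, and 12074 named genes were tested. Fibroblast markers fitted the label: 12 of 13 measured on the arrays were well above background on all 6 arrays. Of 22 macrophage markers, 10 were not well above background on any of the 6 arrays, among them Ptprc, Spi1, Tyrobp, Laptm5, Msr1 and the C1q genes, and 7 (Csf1r, Cd14, Itgam, Mpeg1, Aif1, Cd53 and Clec4d) were on all 6. The linear signal summed over the macrophage list ran from 7696 to 9828 in untreated cells and from 5433 to 5881 with cortisol, so the groups did not overlap, and the part of this difference in the results below was not tested. In such bulk samples, fewer cells of a type and less RNA per cell cannot be told apart.

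Across the 12074 genes, 88 were higher with cortisol (0.729%) and 105 lower (0.87%) at an adjusted p under 0.05 in limma and a change of at least 1.5-fold. All 193 called genes moved the same way at the 3 times, beside 4764 of the 12074 genes tested. The calls rest on these same 3 differences and so favour genes of 1 sign. The 3 cortisol arrays did not overlap the 3 untreated arrays for 66 of the 88 higher genes and 80 of the 105 lower genes, beside 10.7% of all genes tested. The log2 difference ran from 0.63 to 5.10 among the higher genes above background in at least 1 untreated array and from -0.64 to -3.03 among the lower genes, and 56 and 46 of them respectively changed at least 2-fold. Of the higher genes, 5 were not well above background in any untreated array (Ear1, Sult1a1, Syn2, Cxcl13 and Sprr2k), so they passed the filter only through the cortisol arrays, and bounds are given for them in place of a fold. Without the filter on dim probes limma called 0 genes, with 1838 at an unadjusted p under 0.05, and without a trend of the variance on the signal level it called 3 higher and 1 lower. Leaving out the 24 h arrays left 9 higher and 1 lower, while leaving out the 6 h arrays gave 127 and 217 and leaving out the 48 h arrays 234 and 255.

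**Figure D1:**
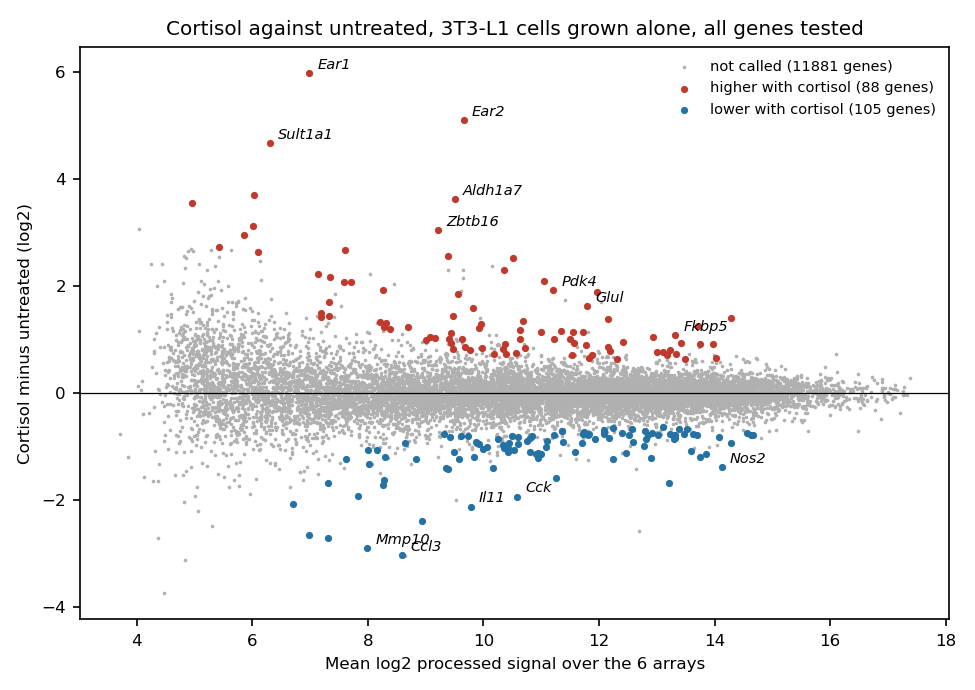
Log2 difference between cortisol and untreated (y axis) against the mean log2 processed signal over the 6 arrays (x axis) for the 12074 genes tested, 1 point per gene, with the 88 genes called higher in red and the 105 called lower in blue. Most genes lie near 0, and Ear1, Ear2 and Sult1a1 stand furthest above it.

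Genes known to be induced by glucocorticoids had the highest median of the 20 lists examined. Of 36 tested members of that list, 11 rose, none fell and 25 did not pass the test, while 0.729% of all genes tested were called higher. Sult1a1, one of the 11, passed the filter only through its cortisol arrays. The median log2 difference was 0.316 beside -0.012 over all genes tested. Members went both ways, 28 above 0 and 8 below, the lowest at -2.497. The list was chosen with earlier results of these data known. The risers covered feedback on the receptor (Fkbp5), anti-inflammatory signalling (Tsc22d3), the clock (Per1), transcription factors (Zbtb16, Klf9), fuel and nitrogen metabolism (Pdk4, Glul), G-protein signalling (Rgs2), a secreted protein (Crispld2), a carrier of sulfated steroids (Slc10a6) and a phenol sulfotransferase (Sult1a1). None of the list was called with all 12 green channels in the fit, 3 without pairing by time, 4 without the 24 h arrays and 1 without the variance trend. With the 9 arrays that leave out the serotonin arrays of 6 h and 24 h and the CS array of 24 h, 10 were called. Those 3 arrays were left out because earlier results of these data stood against their labels, so the fit on 9 arrays is not a separate check.

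Zbtb16, which codes for the zinc finger repressor PLZF, changed most among the list members measured above background in both groups. Its log2 signal was 7.73, 7.98 and 7.38 in untreated cells and rose at 6, 24 and 48 h to 10.7, 10.82 and 10.7 with cortisol. All 3 cortisol arrays lay far above the untreated arrays, a log2 difference of 3.05 ± 0.16 (SE, n = 3 pairs of arrays), or 8.26-fold, with a limma adjusted p of 0.00079. Pdk4, the kinase that shuts off pyruvate dehydrogenase, had log2 signals of 10.02, 10.50 and 10.23 without and 12.10, 12.31 and 12.09 with the hormone. The groups were again well apart, and Pdk4 rose by 1.92 ± 0.12 on the log2 scale (limma adjusted p 0.00079). Glul, glutamine synthetase, gave almost the same log2 difference at each time, 1.65 at 6 h, 1.62 at 24 h and 1.61 at 48 h (1.62 ± 0.11, limma adjusted p 0.00113).

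Fkbp5, the co-chaperone that lowers the affinity of the receptor for its hormone, had log2 signals of 12.47, 13.10 and 12.74 in untreated cells and 13.58, 14.14 and 13.85 with cortisol. Its groups did not overlap, and its log2 difference was 1.08 ± 0.11, or 2.12-fold (limma adjusted p 0.00762). Tsc22d3, also called GILZ, had log2 signals of 13.44, 14.05 and 13.27 without and 14.96, 15.25 and 14.75 with cortisol. It rose by 1.40 ± 0.12 on the log2 scale (limma adjusted p 0.00396), with the lowest cortisol array above the highest untreated one. Per1, a repressor of the circadian clock, differed most at 6 h, where its log2 signal was 12.62 without and 14.62 with cortisol, while its log2 difference was 0.98 at 24 h and 0.79 at 48 h (1.26 ± 0.22, limma adjusted p 0.0419). Klf9, a zinc finger transcription factor, had the smallest change of the called members, 0.78 ± 0.13 on the log2 scale (limma adjusted p 0.0341).

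Crispld2 rose by 1.58 ± 0.16, Slc10a6 by 1.34 ± 0.13 and Rgs2, which turns off G-protein signals, by 0.91 ± 0.12, all on the log2 scale and each with groups that did not overlap. Sult1a1 was not well above background in untreated cells, where its log2 signal read 4.66, 4.06 and 3.17, and read 7.29, 8.88 and 9.74 with cortisol. This was at least 13.4-fold higher with cortisol, the bound being the mean of the cortisol arrays over the lowest signal well above background on each untreated array or the probe's own signal, whichever was higher. The bound holds for the processed signal: under a normexp background correction, which adds an offset of 50 to each signal, the Sult1a1 difference was 2.45 on the log2 scale. Its limma adjusted p was 0.0244 and, without the filter on dim probes, 0.383. Several textbook targets did not pass the test: the log2 difference was 0.30 ± 0.12 for Sgk1, a kinase of salt balance (adjusted p 0.266), 0.27 ± 0.12 for Dusp1, a MAP kinase phosphatase (0.304), 0.59 ± 0.12 for Errfi1 (0.061), -0.02 ± 0.13 for Nfkbia, the NF-kB inhibitor (0.967), and -0.17 for Cebpd, an early adipogenic factor (0.56).

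**Figure D2:**
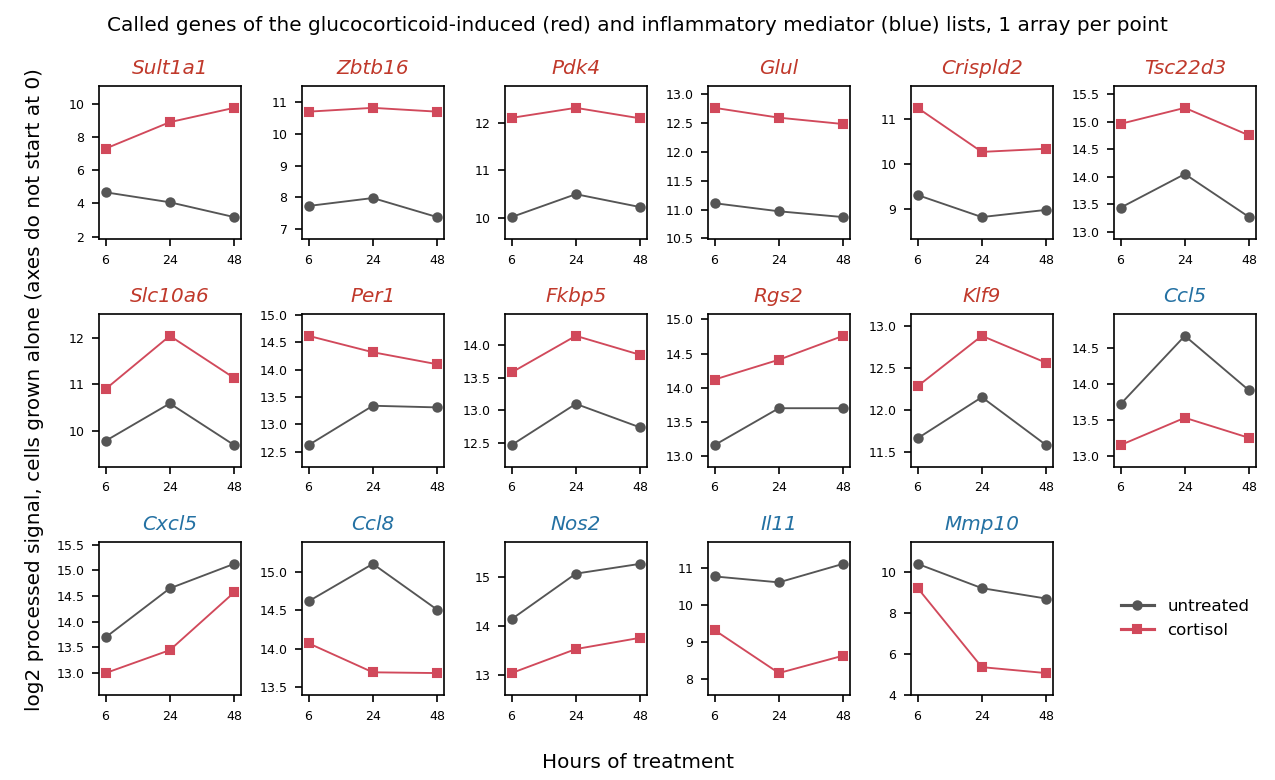
Log2 processed signal of cells grown alone (y axes, which do not start at 0) against hours of treatment (x axes), with 1 point for each array, for the 11 glucocorticoid-induced genes (red names) and 6 inflammatory mediator genes (blue names) that were called, with cortisol as red squares and untreated as grey circles. For each of these genes the cortisol point lies on the same side of the untreated point at all 3 times, which their choice as called genes favours.

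The receptor's own machinery differed little. Of 18 tested genes for the receptor, its chaperones, coregulators and steroid enzymes, none rose and 1 fell, with a median of -0.102. Over all genes tested 0.87% were called lower. The receptor gene Nr3c1 had log2 signals of 13.62, 14.04 and 13.58 in untreated cells and 13.31, 13.36 and 13.60 with cortisol. These groups overlapped, and the log2 difference was -0.32 ± 0.15 (limma adjusted p 0.336). Hsd11b1, whose enzyme regenerates active glucocorticoid, was measured at a log2 difference of -0.27 ± 0.16 (adjusted p 0.455). The member that fell was Akr1c18, which inactivates progesterone, by 1.10 ± 0.18 on the log2 scale (limma adjusted p 0.0336).

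RefSeq promoters (build GRCm38.p6, 250 bases before to 50 after a transcript start) were matched by gene ID for 65 of the 88 higher genes, 67 of the 105 lower genes and 9659 of the 12074 genes tested. The palindromic glucocorticoid response element GNACANNNTGTNC was found in the promoters of 5 of the 65 higher genes (7.69%), 0 of the 67 lower genes and 41 of all 9659 (0.424%). It overlapped none of the matches of the other motifs. The 5 matches are shown because they lie in genes that rose, with the element in capitals, and all stretches end before the annotated start. Trim63, the muscle ubiquitin ligase MuRF1, is at chr4:134314870-134314977 (plus strand), Serpina3c, a serine protease inhibitor, at chr12:104153882-104154001 (minus strand), Map3k6, a MAP kinase kinase kinase, at chr4:133240583-133240702 (plus strand), Slc10a6 at chr5:103629501-103629620 (minus strand) and Suox, sulfite oxidase, at chr10:128673919-128674018 (minus strand).
Trim63: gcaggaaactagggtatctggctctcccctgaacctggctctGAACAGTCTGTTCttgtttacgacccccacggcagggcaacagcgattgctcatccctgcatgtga
Serpina3c: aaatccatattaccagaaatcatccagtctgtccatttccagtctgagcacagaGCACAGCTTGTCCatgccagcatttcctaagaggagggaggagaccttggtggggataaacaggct
Map3k6: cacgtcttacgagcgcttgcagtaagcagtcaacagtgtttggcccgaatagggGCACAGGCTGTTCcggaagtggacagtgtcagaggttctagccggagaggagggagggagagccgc
Slc10a6: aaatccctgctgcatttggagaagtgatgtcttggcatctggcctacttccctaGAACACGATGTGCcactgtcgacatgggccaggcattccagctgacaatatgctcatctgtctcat
Suox: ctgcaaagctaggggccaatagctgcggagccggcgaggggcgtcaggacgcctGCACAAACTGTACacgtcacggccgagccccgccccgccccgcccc

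The first base of the element stood at -208 in Trim63, -75 in Serpina3c, -181 in Map3k6, -163 in Slc10a6 and -46 in Suox, counted so that -1 is the last base before the start. The AP-1 motif TGANTCA, read on both strands, was found in 13 of the 67 lower promoters (19.4%), in 11 of the 65 higher promoters (16.9%) and in 648 of all 9659 (6.71%). The NF-kB motif, GGGA, any base and TTTCC, was found on either strand in 1 of the 65 higher promoters (1.54%), 0 of the 67 lower promoters and 0.497% of all. A match is a run of letters and not a measured binding site. Among the lower genes with the AP-1 motif were the cytokine gene Il11, chr7:4778177-4778296 (minus strand), and the stromelysin gene Mmp10, chr9:7502222-7502341 (plus strand), whose stretches are shown as the inflammatory mediators among them, with the motif in capitals.
Il11: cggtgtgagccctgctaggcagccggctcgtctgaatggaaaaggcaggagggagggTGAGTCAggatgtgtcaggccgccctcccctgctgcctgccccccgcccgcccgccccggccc
Mmp10: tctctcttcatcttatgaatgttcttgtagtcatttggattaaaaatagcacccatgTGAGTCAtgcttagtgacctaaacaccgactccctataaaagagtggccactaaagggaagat

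The genes furthest above untreated included secreted proteins and enzymes of detoxification. Ear1, a ribonuclease of the eosinophil-associated family, read 3.74, 4.56 and 3.70 on the log2 scale in untreated cells, where it was not well above background, and 9.52, 9.79 and 10.63 with cortisol. On the processed signal it was at least 37.9-fold higher with cortisol. The log2 difference of Ear1 was 3.75 under the normexp correction, and its limma adjusted p was 0.00079 with and 0.292 without the filter on dim probes. Ear2, of the same family, was measured in both groups, at 7.22, 7.23 and 6.87 without and 11.37, 12.24 and 13.02 with the hormone. No cortisol array came near an untreated one, and the log2 difference was 5.10 ± 0.32, or 34.3-fold. These genes are close copies, and a probe for one may also read the other.

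The retinaldehyde dehydrogenase Aldh1a1 and its close copy Aldh1a7 both rose, by 2.67 ± 0.26 and 3.63 ± 0.40 on the log2 scale, and cannot be taken as fully separate readings. Aldh1a7 read 8.07, 7.72 and 7.28 without and 10.23, 11.88 and 11.83 with cortisol, with no overlap. Under normexp the difference of Aldh1a1 was 1.94. It was above its untreated partner at every time, though the groups overlapped, since its untreated log2 signal was 4.52 at 6 h and 7.34 at 24 h. Cdo1, cysteine dioxygenase, rose by 2.52 ± 0.36, though its groups overlapped. Suox, another sulfur enzyme, was 0.92 ± 0.12 higher (limma adjusted p 0.0153).

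Syn2, a synaptic vesicle protein, and Cxcl13, a chemokine that attracts B cells, were not well above background in any untreated array. On the processed signal they were at least 8.57-fold and 4.01-fold higher with cortisol. Under the 2 normexp settings the log2 difference was only 1.72 and 1.76 for Syn2 and 1.18 and 1.21 for Cxcl13, which then lost its call (limma adjusted p 0.0637 and 0.0673). The other Syn2 probe that passed the filter gave a log2 difference of 1.42, and the mean of both was not called (adjusted p 0.0636). Sprr2k, a protein of the cornified envelope, was at least 7.15-fold higher on the processed signal and differed by 1.66 on the log2 scale with normexp and loess. Trim63 was above background on 2 of the 3 untreated arrays. Its log2 signal was 2.69, 5.29 and 6.39 in untreated cells and 6.45, 7.86 and 7.94 with cortisol, so the lowest cortisol array lay just above the highest untreated one (2.63 ± 0.48, limma adjusted p 0.0458, and 1.23 under normexp). Col11a1, a fibrillar collagen, was above background on 2 of the 3 untreated arrays, with a log2 difference of 2.96 ± 0.54 on the processed signal and 1.37 under normexp. Mertk, a receptor for the uptake of dying cells, was above background on 1 of them, with 2.73 ± 0.51 and 1.09, and was not called under 75th percentile scaling (limma adjusted p 0.0795).

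**Figure D3:**
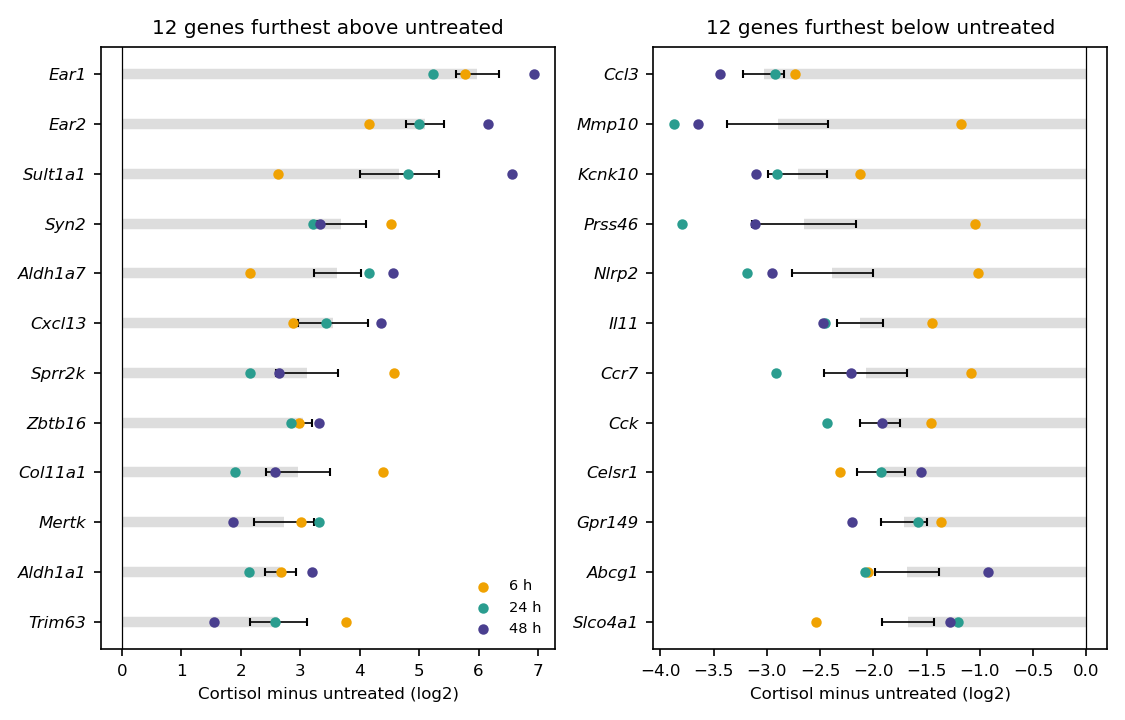
Log2 difference between cortisol and untreated (x axes) for the 12 called genes furthest above (left) and below (right) untreated by the naming rule, with points for 6 h (yellow), 24 h (green) and 48 h (purple), a grey bar to the fitted difference and its SE as a black error bar. Zbtb16 differs by nearly the same amount at all 3 times and Mmp10 least at 6 h, while the untreated arrays of Ear1, Sult1a1, Syn2, Cxcl13 and Sprr2k lay at background.

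Acute-phase genes held a mixed picture. Of 21 tested members, 2 rose, none fell and 19 were not called, with a median of 0.045, while 0.729% of all genes tested were called higher. Orm3, an orosomucoid of the acute-phase response, had log2 signals of 9.77, 8.94 and 8.88 without and 10.85, 11.39 and 12.27 with cortisol, which did not overlap (2.30 ± 0.36, limma adjusted p 0.0334). The other called member was Cdo1, described above, which is an enzyme of cysteine breakdown and not an acute-phase protein. Lcn2, a siderophore-binding protein, was at -0.03 (adjusted p 0.91), and Serpina3n and Serpina3m, protease inhibitors, were at 1.90 (adjusted p 0.077) and 2.15 (0.095).

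Inflammatory mediators lay below untreated throughout the list. Of 32 tested members none rose, 6 fell and 26 were not called, while 0.87% of all genes tested were called lower. The differences of all 32 were below 0, beside 6272 of the 12074 genes tested. The median was -0.654 beside -0.012 over all genes. The 6 that fell were the cytokine Il11, the metalloproteinase Mmp10, the inducible nitric oxide synthase Nos2 and the chemokines Ccl5, Ccl8 and Cxcl5. Among all called genes the one furthest below untreated was another chemokine, Ccl3, which is not on the list. None of the list was called without the 24 h arrays or without pairing by time, 2 were called with all 12 green channels, 3 with the 9 arrays and 16 without the 6 h arrays. The summed macrophage marker signal given above was lower with cortisol as well.

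Ccl3, which draws monocytes and lymphocytes, had log2 signals of 9.38, 10.09 and 10.84 in untreated cells and 6.65, 7.16 and 7.41 with cortisol. All cortisol arrays lay far below all untreated arrays, and Ccl3 fell by 3.03 ± 0.19 on the log2 scale, or 8.18-fold (limma adjusted p 0.00079). Il11, a cytokine of the interleukin-6 family, read 10.78, 10.62 and 11.12 without and 9.33, 8.17 and 8.64 with the hormone. It fell by 2.12 ± 0.22 (limma adjusted p 0.00762), without overlap. Mmp10 fell least at 6 h: its log2 difference was -1.18 at 6 h, -3.87 at 24 h and -3.65 at 48 h (-2.90 ± 0.48, limma adjusted p 0.035), and it was not well above background on 1 of the 3 cortisol arrays. The groups of Mmp10 overlapped, since it read 9.22 with cortisol at 6 h and 8.70 untreated at 48 h. With normexp and loess the log2 difference of Mmp10 was -2.01.

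Nos2, which makes nitric oxide in activated cells, had log2 signals of 14.13, 15.06 and 15.26 in untreated cells and 13.03, 13.52 and 13.75 with cortisol. The highest cortisol array lay below the lowest untreated array, and Nos2 fell by 1.38 ± 0.13 (limma adjusted p 0.00705). Smaller falls were measured for Ccl8 (-0.93 ± 0.17), Cxcl5 (-0.82 ± 0.15) and Ccl5 (-0.79 ± 0.14), each at a limma adjusted p of 0.0429 or 0.0436. Il6 did not pass: it read 12.01, 12.83 and 14.27 without and 11.41, 12.31 and 12.41 with cortisol, so the groups overlapped (-0.99 ± 0.25, adjusted p 0.104). Csf2, the growth factor GM-CSF, had a log2 difference of -3.04 ± 0.61 with an adjusted p of 0.0569, and Ptgs2, cyclooxygenase 2, one of -0.84 ± 0.19 (0.078). Ccl2, the monocyte attractant, differed by -0.37 ± 0.13 (adjusted p 0.208).

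Interferon-stimulated genes were also mostly below untreated. Of 30 tested, none rose and 6 fell (Rsad2, Oasl2, Zbp1, Igtp, Oas2 and Xaf1), while 0.87% of all genes tested were called lower. The differences of 29 of the 30 were below 0, beside 6272 of the 12074 genes tested. The median was -0.554 beside -0.012 over all genes. Oasl2, of the oligoadenylate synthetase family, had log2 signals of 12.95, 13.94 and 12.92 in untreated cells and 12.02, 12.86 and 11.95 with cortisol, which did not overlap (-0.99 ± 0.11, limma adjusted p 0.0103). Rsad2, the antiviral protein viperin, fell by 1.23 ± 0.19, but its untreated level itself ran from 11.07 at 6 h to 14.34 at 24 h, so the groups overlapped. Ifit3b, an antiviral gene outside the list, fell by 1.59 ± 0.28 (limma adjusted p 0.0429). Isg15, the ubiquitin-like modifier, was at -0.37 (adjusted p 0.21). Averaged over all its probes, Xaf1 was at -0.53 and lost its call (limma adjusted p 0.124). None of the list was called without the 24 h arrays, with all 12 green channels or without pairing by time, and 2 were called with the 9 arrays.

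Further large falls were found for genes of varied roles. Kcnk10, a background potassium channel, fell by 2.71 ± 0.28 on the log2 scale (limma adjusted p 0.00762), with untreated log2 signals of 9.20, 8.19 and 8.62 and cortisol signals of 7.08, 5.29 and 5.52, and by 1.77 under normexp. Cck, the peptide cholecystokinin, fell by 1.94 ± 0.19 and Scx, the tendon transcription factor scleraxis, by 1.63 ± 0.18, both without overlap. Nlrp2, of the NOD-like receptor family, and Ccr7, a chemokine receptor, fell by 2.39 ± 0.38 and 2.07 ± 0.39, but Ccr7 was at -1.35 under normexp without a call (limma adjusted p 0.0512). Celsr1, a cadherin of planar cell polarity, Slco4a1, an organic anion carrier, Gpr149, an orphan receptor, and Serpinb6b, a protease inhibitor, fell by 1.93 ± 0.23, 1.68 ± 0.25, 1.71 ± 0.22 and 1.43 ± 0.16. The groups of Gpr149 overlapped. Prss46, a serine protease, was well above background on 1 of the 3 cortisol arrays, and its groups overlapped. Its log2 difference was -2.65 ± 0.49 on the processed signal and -1.50 or -1.45 under the normexp settings.

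Growth factor, matrix and signalling lists held a few falls each, beside 0.87% of all genes tested that were called lower. Of 23 genes of insulin, IGF and growth factor signalling, 4 fell and none rose (median -0.371), among them Igfbp5, an IGF-binding protein, by 1.21 ± 0.14, Hgf, hepatocyte growth factor, by 1.03 ± 0.13 and Vegfa by 0.68 ± 0.12. Of 33 collagen and matrix genes, 3 fell (median -0.009): Timp3, a metalloproteinase inhibitor, by 1.13 ± 0.13, Loxl2, a collagen cross-linker, by 1.07 ± 0.20 and Has2, hyaluronan synthase, by 1.05 ± 0.13. Averaged over all their probes, Loxl2 and Vegfa lost their calls (limma adjusted p 0.163 and 0.0576). The collagen genes Col1a1 and Col3a1 were at -0.44 (adjusted p 0.15) and -0.01 (0.98). Among 23 Wnt, BMP and TGF-beta genes (median -0.35), the BMP antagonist Grem1 fell by 1.15 ± 0.12 and Ccn5 by 0.69 ± 0.13, while the activin antagonist Fst rose by 0.77 ± 0.12. Grem1 was steady within each group, with log2 signals of 14.32, 14.46 and 14.52 without and 13.41, 13.18 and 13.27 with cortisol.

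Of 24 immediate early and MAP kinase feedback genes, 2 fell (median -0.502): the orphan nuclear receptor Nr4a1 by 1.21 ± 0.14 and Phlda1 by 1.09 ± 0.18. Of these 24, 21 lay below untreated. Over all genes tested 0.87% were called lower and 0.729% higher, and 6272 of the 12074 lay below untreated. Fos and Jun, subunits of AP-1, were at -0.44 (adjusted p 0.20) and -0.76 (0.071). Among 15 clock genes (median -0.423) Per1 rose and Nr1d2, a repressor of the same feedback loops, fell by 0.81 ± 0.13, while Per2 was at 1.62 with an adjusted p of 0.23. Of 25 cholesterol genes, 23 lay below untreated (median -0.348), and only Abcg1, which exports sterols, passed, with a fall of 1.69 ± 0.30. Of 28 hypoxia and glycolysis genes, 20 lay below untreated (median -0.214). Only Vegfa passed among them, and its call was lost with the mean of its probes. Of the 11 tested macrophage markers, 7 lay below and 4 above untreated, with log2 differences from -1.014 to 1.286 and a median of -0.433. The 2 called were Mpeg1, which fell by 0.97 ± 0.15, and Cd14, by 0.71 ± 0.13. Cd14 is a co-receptor for bacterial lipopolysaccharide that fibroblasts also carry.

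Adipocyte genes did not pass the test in either direction. Of 32 tested adipogenic regulators and adipocyte genes, 0 were called by limma and 6 had an unadjusted p under 0.05 (2 higher and 4 lower). Their median was -0.04, but single log2 differences ran from -0.742 to 1.841. Pparg, the master regulator of fat cells, had a log2 difference of 0.21 (adjusted p 0.47), Cebpb of -0.17 (0.60) and Fabp4, the fatty acid carrier, of 0.09 (0.88). Adipoq, Plin1, Lep and Cebpa did not pass the filter on dim probes or had spots marked as outliers. None of 30 cell cycle, 26 ER stress, 22 NRF2 and metallothionein, 13 contractile, 12 fibroblast and 14 housekeeping genes was called either. Their medians were -0.009, 0.051, -0.179, -0.297, -0.054 and -0.017. An unadjusted limma p under 0.05 was found for 3, 4, 7, 0, 4 and 2 of them. Over all genes tested, 1999 of the 12074 had such a p.

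**Figure D4:**
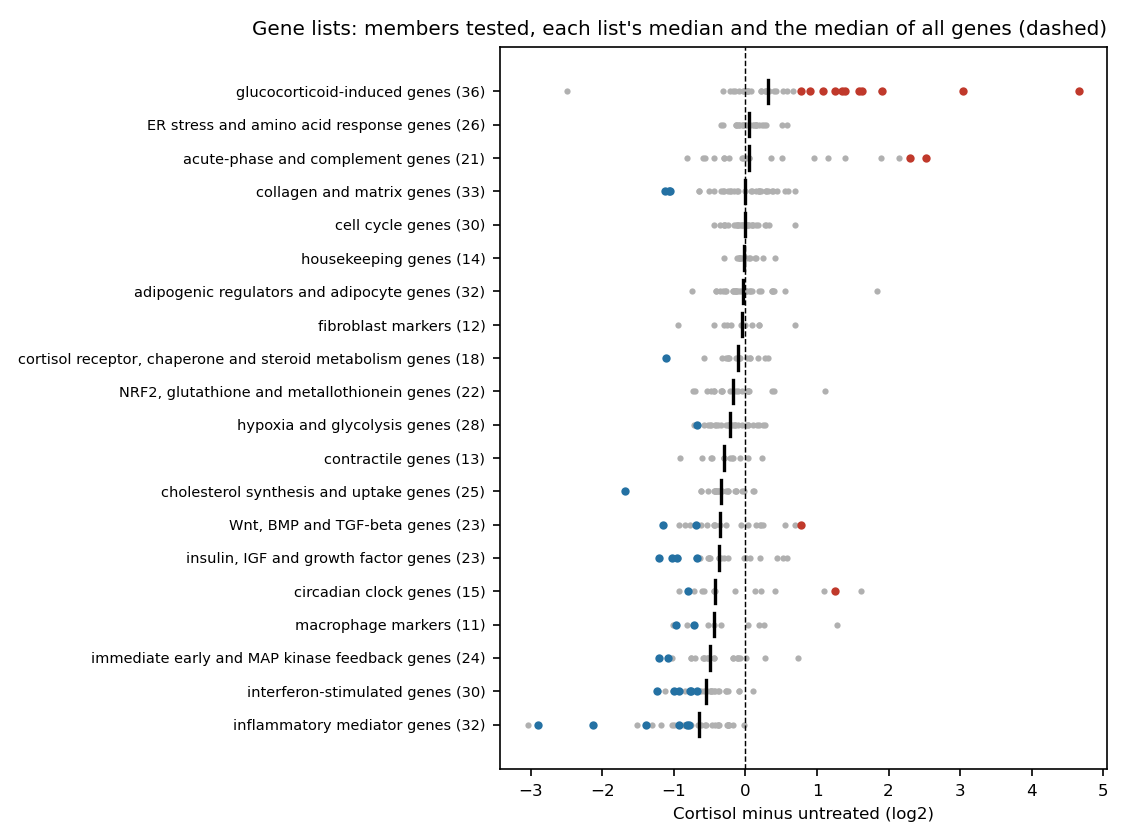
Log2 difference between cortisol and untreated (x axis) for the tested members of each of the 20 gene lists (rows, number tested in brackets), with genes called higher in red, called lower in blue and others in grey, each list's median as a black bar and the median of all genes as a dashed line. The glucocorticoid-induced list has its median at 0.316 and the inflammatory mediator list at -0.654, with no inflammatory member above 0.

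The 3 times did not contribute alike, though with 1 pair of arrays per time the differences between times could not be tested. For 42 of the 88 higher genes (47.7%) the difference was largest at 6 h, for 21 at 24 h and for 25 at 48 h. Among the 105 lower genes it was largest at 6 h for 18 (17.1%), at 24 h for 61 (58.1%) and at 48 h for 26. Over all genes, taken in the direction of their own mean difference, the difference was largest at 6 h for 42.6%, at 24 h for 33.6% and at 48 h for 23.8%. The median of the lower genes was -0.844 at 6 h, -1.104 at 24 h and -0.921 at 48 h, and that of the higher genes 1.225, 1.082 and 1.10. Per1 was largest at 6 h, whereas Orm3 and Cdo1 were largest at 48 h, with differences for Cdo1 of 1.46, 2.34 and 3.76.

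The same genes were read in co-cultured cells of these arrays and on the arrays with serotonin. Since both channels of an array went through the same dye normalization, the co-culture values are given beside the others and not as separate evidence. In co-culture the median difference between cortisol and untreated was 0.915 over the higher genes and -0.573 over the lower genes, beside -0.013 over all genes. Zbtb16 differed by 2.55 in co-culture and 3.05 alone, Pdk4 by 1.27 and 1.92, Fkbp5 by 0.55 and 1.08, and Ccl3 by -2.54 and -3.03, all means of 3 log2 differences. Nos2, which fell in cells alone, was at -0.08 in co-culture. Slco4a1 had a mean of 0.37 there, from differences of -0.35 (6 h), -0.52 (24 h) and 1.97 (48 h). Only its 48 h pair was higher with cortisol.

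The difference of the cortisol effect between co-culture and alone was tested within the arrays. Limma called 0 of 11974 genes (0%), with 833 at an unadjusted p under 0.05 (6.96%). Of the called genes, 29 of 87 higher and 48 of 105 lower ones were among those 833, but the alone values that chose these genes are part of the difference, so no test is read from this count. The fitted difference, co-culture minus alone, was 1.31 for Nos2, 0.98 for Cck and 1.30 for Abcg1. None of these passed after adjustment.

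The CS and S arrays of 48 h share no array with the comparison and differ by cortisol, in the presence of serotonin. In cells alone, CS was at least 1.5-fold above S for 72 of the 88 higher genes (5.08% of all genes) and at least 1.5-fold below it for 82 of 104 lower genes (5.29%). The medians were 1.02 and -0.84 on the log2 scale, with 1 array on each side and so no test. Ear2 differed by 4.66, Zbtb16 by 3.08, Il11 by -1.65 and Mmp10 by -2.51 in that pair. Abcg1 differed by only -0.21 and Cxcl5 by -0.28. Ccl3 had no value on the CS array of 48 h in cells alone. Its log2 difference of CS from untreated in cells alone was 0.40 at 6 h and 1.78 at 24 h. In co-culture Ccl3 read 11.32, 11.2 and 11.34 with CS at 6, 24 and 48 h, beside 10.8, 10.98 and 11.44 untreated. With C it read 8.24, 8.57 and 8.82 there. The fall of Ccl3 on the C arrays was thus not repeated on the CS arrays that measured it, and the cause was not tested.

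**Figure D5:**
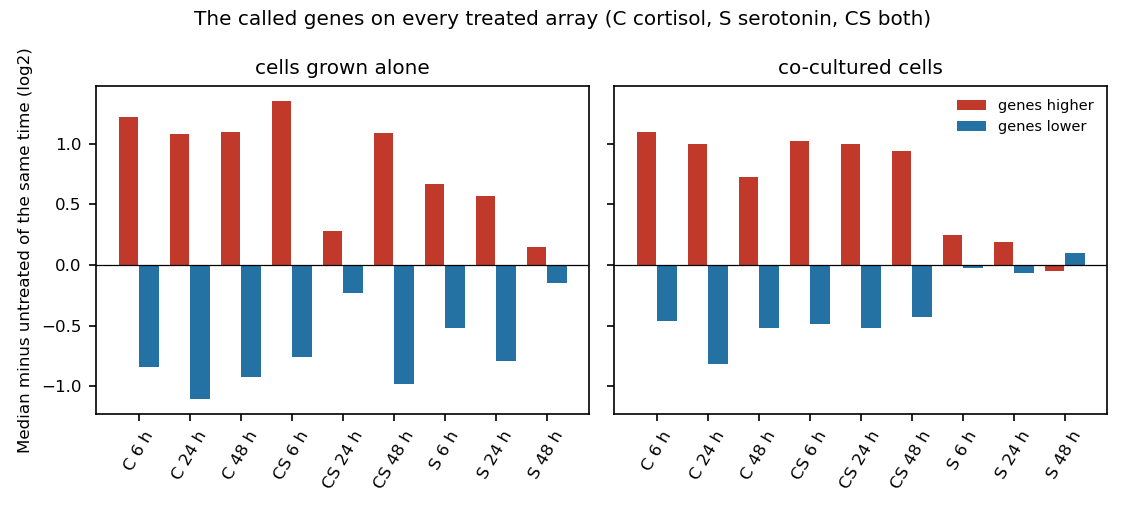
Median log2 difference from the untreated array of the same time (y axis) over the 88 higher (red) and 105 lower genes (blue) on every treated array (x axis: C cortisol, S serotonin, CS both), in cells alone (left) and in co-cultured cells (right). The C arrays chose these genes; in cells alone the S arrays of 6 h and 24 h lie at 0.671 and 0.569 and the CS array of 24 h at 0.279.

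On the other arrays of cells alone the labels and these genes did not go together throughout. The higher genes had a median of 1.355 on the CS array of 6 h and 1.091 on that of 48 h, but 0.279 on that of 24 h, while the S arrays of 6 h and 24 h, which had no cortisol by their labels, had medians of 0.671 and 0.569. In the co-culture channel of the same 3 arrays the medians were 0.251 for S at 6 h, 0.194 for S at 24 h and 0.997 for CS at 24 h. These 3 arrays took no part in the comparison beyond the normalization. With all 12 arrays in the fit, 29 genes were called higher and 14 lower, and with the 9 arrays left without these 3, 84 and 68. These 3 were left out because their signals stood against their labels, so the higher counts are not a separate check.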

How the data were processed

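Both channels of 12 Agilent mouse arrays were deposited, 1 array per treatment and time. The authors scanned the slides and extracted spots with Agilent Feature Extraction (version 10.7.3.1 per the file headers, whereas the submitters' processing notes name 10.5.1.1). Deposited values were linear intensity of each spot and its local background, a processed intensity that is background subtracted and normalized between the 2 dyes of the array, a log10 ratio of Cy5 over Cy3, and other columns, flags for outlier, saturated or well above background spots. No dyes were swapped. The deposited log10 ratio was used only as an alternative. The authors' value table of the series holds the same ratios and was not used otherwise.

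Log2 processed green intensity was quantile normalized between the 12 green channels. Control and outlier spots were left out and spots of a probe averaged. Of 39429 probes, 27508 were named through RefSeq transcripts (GRCm38.p6; 20886 symbols). Probes had to be well above background on at least 3 of the 6 arrays (19767, of which 526 had outlier spots and were left out), and a gene was read from its brightest probe. Several probes passed for 44 called genes: 0 had calls of both directions, but Acin1, Psd3, Rpl35a, Tubb2b and Ube2d2a had probes of both signs. No called gene had a saturated spot. Limma 3.58.1 (R 4.3.3 with version 1.17.8 of data.table) fitted treatment and time on the 6 arrays, with a mean trend (2 residual and 7.83 total degrees of freedom). Adjusted p-values are two-sided, by Benjamini-Hochberg over all genes tested. Calls needed an adjusted p under 0.05 and 1.5-fold. The number of arrays limits the precision.

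The labels pair C and NT arrays by time. Deviations from the group means correlated across genes at 0.463, 0.466 and 0.421 for arrays of one time and at -0.052 or below for others. The co-culture minus alone effect was fitted alike on the ratio of both channels, quantile normalized together. Genes named were the 15 highest and 15 lowest called with 1 sign at all times, leaving out clone names, predicted genes and olfactory or vomeronasal receptors, then called list members and defining members of a list. Ear10, Tent5b, Map3k6, Serpina3c, Suox and the families in the closing section were chosen after their values were seen. Some genes that these rules pick are not reported here. Members and the 20 lists were chosen with earlier results of these data known. Simulated data with known changes were used to test the fit. Python 3.11.15 and matplotlib 3.10.9 served for the plots.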

Additional observations from a re-analysis of the deposited data

Results flagged for a closer look

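The S arrays of 6 h and 24 h, which the comparison did not use, carried the cortisol pattern in cells grown alone above the level of the untreated arrays. The genes higher with cortisol had a median log2 difference from the untreated array of the same time of 0.671 at 6 h and 0.569 at 24 h, and those lower with cortisol of -0.52 and -0.792. Among the untreated arrays themselves, each set against the mean of the other two, the medians of these genes ran from -0.375 to 0.232 and from -0.195 to 0.30. On the S array of 48 h the medians were 0.146 and -0.148, within that range. At 6 h, 84 of the 88 higher genes lay above and 96 of the 105 lower genes below untreated, and at 24 h 82 and 104. The S arrays share their untreated arrays with the comparison, and the cause was not tested.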

How the results depend on the processing

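The comparison of cortisol over untreated in cells grown alone called 193 genes, 88 higher and 105 lower. The counts stayed within 1.5 times of these under 75th percentile scaling, quantile normalization of 6 or 24 channels, normexp without dye normalization, loess with Aquantile, the stricter filter, the mean of probes, robust moderation and no fold threshold. They left it under no filter on dim probes (0 genes; 1838 at an unadjusted p under 0.05), no mean trend (4: 3 and 1), all 12 arrays (43: 29 and 14), 9 arrays (68 lower), a 2-fold threshold (102: 56 and 46) and no replicate block, where without pairing by time 7 genes (6 and 1) were called. Leaving out the arrays of one time gave 10 to 489 genes, 9 to 234 higher and 1 to 255 lower. The 24 h arrays decided most calls: without them 58 of the 65 named genes lost theirs. The cause was not tested. All 193 genes kept their sign in every setting that tested them, which their choice on these arrays favours. The difference between co-culture and alone had 0 called genes under all 9 alternatives, including the replicate block left out, with 168 to 1165 genes at an unadjusted p under 0.05.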

Other observations

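Some gene families were picked after their values were seen, so they carry no test of their own. They share members with the lists: the orosomucoids, Serpina3m and Serpina3n are acute-phase list members, and Igtp, Iigp1, Tgtp1 and Tgtp2 are interferon list members. All 8 tested members of the Serpina3 cluster of protease inhibitors lay above untreated, with a median log2 difference of 1.872. Of these, 3 passed the limma test (Serpina3c 2.07, Serpina3i 1.29 and Serpina3f 1.13), while 0.729% of all genes tested were called higher. Of 4 tested eosinophil-associated ribonucleases, Ear1, Ear2 and Ear10 were called, while Ear6 had no call and, like Ear1, was not well above background in untreated cells. Members of both families are close in sequence, so their probes may share targets. All 3 orosomucoids were above untreated, Orm3 with a call and Orm1 and Orm2 at 1.16 and 1.39 without. Other families went both ways. Of 7 tested Sprr2 genes (median -0.182), Sprr2k was called higher and Sprr2d lower, at -1.19. Of 10 tested Rgs genes (median -0.222), Rgs2 was called higher and Rgs16 lower, at -1.11.

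All 8 tested immunity-related GTPases, which defend cells against intracellular microbes and are induced by interferon, lay below untreated, with a median of -0.775. Ifi47, Igtp, Irgm1 and Irgm2 were called, while 0.87% of all genes tested were called lower. Both tested Ets factors of the Pea3 group fell, Etv1 by 0.74 and Etv4 by 0.78. Acod1, the enzyme that makes itaconate, fell by 1.41 ± 0.18 (limma adjusted p 0.0155), with log2 signals of 9.60, 10.99 and 9.57 without and 8.32, 9.16 and 8.47 with cortisol. Tent5b, a poly(A) polymerase, rose by almost the same amount at each time, 2.10, 2.14 and 2.05 at 6, 24 and 48 h (2.10 ± 0.12, limma adjusted p 0.00079).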
